A study of Mus musculus with 6 samples.

Results

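Tcf7l2, Lef1, Rora, Tnnt1, Zic1 and Slc17a6 are 6 genes known for high expression in the thalamus, the relay nucleus group that lies directly under the hippocampus, or in the adjoining habenula. They were followed in hippocampal RNA. The members were chosen by name: every probe set annotated to one of the 6 symbols was taken. This gave 9 probe sets for 5 of the 6 genes, out of 8251 genes named on the array. Tcf7l2, Lef1, Rora and Tnnt1 each had a pair of probe sets and Zic1 had 1. Slc17a6 had none and was not measured here. The series has no thalamus sample, so the thalamic enrichment of these genes could not be checked in these data.

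The study concerns mice that overexpress HuD, an RNA-binding protein of neurons, and the labels describe all 6 samples as total RNA of the hippocampus. They assign no sample to overexpressing or control mice and give no strain, age or sex, and they do not say whether animals were pooled. Samples are therefore named 1 to 6, no groups were formed, and each sample is 1 array with no replicate. Every difference below is a difference between single arrays whose measurement error is unknown.

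Tcf7l2 and Lef1 encode DNA-binding factors of the TCF/LEF family, which recruit beta-catenin and act at the end of the Wnt pathway; in the adult brain their transcripts are prominent in thalamic neurons. Rora encodes an orphan nuclear receptor needed for Purkinje cell development and also active in thalamic relay neurons. Zic1 encodes a zinc-finger factor of the dorsal neural tube that stays on in habenula, septum, cerebellum and meninges. Tnnt1 encodes the slow skeletal muscle form of troponin T, the subunit that ties the troponin complex to tropomyosin, and its transcript is a known marker of thalamic neurons. Slc17a6 encodes the vesicular glutamate transporter VGLUT2, typical of thalamic projection neurons.

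The RefSeq windows before annotated transcript starts (build GRCm38.p6) were searched for the letters that TCF/LEF factors prefer, since a pair of the members encode such factors. The words CTTTGAA and CTTTGAT and CTTTGTA and CTTTGTT were sought on both strands in the 250 bases before each start. Of 11 windows belonging to the 6 genes 2 held one, against 14.8% of all 32851 windows. These 2 were the window of an internal start of Lef1 (chr3:131156044-131156293, plus strand) and that of an internal start of Tcf7l2 (chr19:55895071-55895320, plus strand), and they are shown because both genes encode factors of this family. The TATA-box letters TATAAA, sought in the same way, were in 12.4% of all windows and in 3 of the 11, the same 2 and the single window of Tnnt1 (chr7:4515976-4516225, minus strand), where they end 25 bases before the start. The ROR half-site AGGTCA was in 14.0% of all windows and in 0 of the 11. Capitals mark the TCF/LEF word in the first 2 sequences and the TATA letters in the third, each read 5′ to 3′ on the strand of its gene. In Lef1 the match is CTTTGTA on the opposite strand, so the capitals show its reverse complement, and in Tcf7l2 it is CTTTGTT on the printed strand. A match of letters is a description and does not show a binding site.
Lef1 internal start: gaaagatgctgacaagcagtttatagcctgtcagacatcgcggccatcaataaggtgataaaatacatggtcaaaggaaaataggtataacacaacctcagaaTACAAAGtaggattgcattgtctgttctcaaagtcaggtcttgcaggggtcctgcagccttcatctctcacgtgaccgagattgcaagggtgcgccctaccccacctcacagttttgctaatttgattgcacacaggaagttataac
Tcf7l2 internal start: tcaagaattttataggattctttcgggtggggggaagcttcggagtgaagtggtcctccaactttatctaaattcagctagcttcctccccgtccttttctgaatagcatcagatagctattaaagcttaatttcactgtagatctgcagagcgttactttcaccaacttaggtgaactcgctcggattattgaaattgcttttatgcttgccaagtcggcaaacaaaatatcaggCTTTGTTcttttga
Tnnt1 start: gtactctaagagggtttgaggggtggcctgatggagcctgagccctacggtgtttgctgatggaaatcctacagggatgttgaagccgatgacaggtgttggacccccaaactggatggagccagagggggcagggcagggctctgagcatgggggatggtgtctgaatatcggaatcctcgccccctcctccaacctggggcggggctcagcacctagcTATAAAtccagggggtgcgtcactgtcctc

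The values are signal per probe set on a linear scale. For comparison between arrays each was divided by the median of its array and log2 was taken, so that 0 is the array median; values under 0.2 of the median were set to that floor. The range of a gene is its highest minus its lowest log2 value. A gene with several probe sets is represented by the one with the highest mean, and is called expressed where the median of its 6 log2 values is positive. By that filter 4 of the 5 measured members were expressed (Tcf7l2, Lef1, Zic1 and Tnnt1), Tnnt1 only just, with a median of 0.06, while Rora missed it with a median of -0.02. Signals near or under the array median are not shown to be above background. The array medians lay between 59.8 and 63.3, and no pair of the 15 pairs of arrays held identical values. For the pyruvate carboxylase control, whose ratio of 3' to 5' signal is a sign of RNA integrity, that ratio ran from 1.57 in sample 2 to 3.56 in sample 3. The same ratio for beta-actin and Gapdh was highest in sample 1 (1.27 and 0.86) and lowest in sample 2 (1.11 and 0.79). For the transferrin receptor it was instead lowest in sample 1 (2.54) and highest in sample 3 (3.47).

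Lef1 differed most from sample to sample. Its brighter probe set (103628_at) had signals of 105, 166, 145, 220.2, 199.6 and 178 in samples 1 to 6. Sample 1 was apart from the rest, lying 0.52 below the next lowest on the log2 scale, and sample 4 was highest. The range was 1.05, or 2.07-fold, and it was the only member range above 1 (2-fold), against 4.13% of the 4838 expressed genes. Among the 777 expressed genes within 0.25 of its mean log2 level, 18 (2.32%) ranged as widely. Without sample 1 the Lef1 range was 0.53 and without sample 4 it was 0.91, so that no member then passed 1. The second Lef1 probe set (103629_g_at) read between 4.87 and 12.2, at or near the floor in all samples, and gave no information on this difference. Both probe sets are annotated to the same sequence, yet their median signals were 172 and 8.98. The signal of the brighter one is therefore not shown to be that of Lef1 alone. Averaging both probe sets gave a range of 0.53, but a narrower range follows from averaging with a probe set at the floor. It is no check on the brighter one.

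Zic1 was lowest in the same sample as Lef1. Its single probe set (104169_at) read 118.5, 124, 195, 197, 185 and 169.7 in samples 1 to 6. Samples 1 and 2 were the low pair, with log2 values of 0.92 and 1.01, and the other samples lay between 1.43 and 1.70. The range was 0.78, or 1.72-fold. As wide a range was found in 9.88% of all expressed genes and in 63 of the 773 genes of like level. The highest sample was 3 after scaling and 4 in deposited signals and after quantile normalization, and sample 1 was the lowest under each of these scalings.

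Tcf7l2, the other TCF/LEF factor, ran in another order. Its brighter probe set (102241_f_at) read 158, 171, 205, 154, 223 and 218 in samples 1 to 6. Samples 1, 2 and 4 were low and samples 3, 5 and 6 high, so sample 4, the highest for Lef1, was the lowest for Tcf7l2. The range was 0.54, or 1.46-fold, and 28.5% of expressed genes ranged as widely. The ending of this probe set's name marks probes shared within a gene family, so its signal is not shown to be specific to Tcf7l2. The second probe set (97660_s_at), also marked as shared, was under the array median in all samples. It read 32.7, 22.6, 23.5, 35.8, 31.6 and 19.8 in samples 1 to 6, highest in sample 4 and lowest in sample 6, which is not the order of the first.

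Tnnt1, the contractile member, was level in 5 samples and low in 1. Its brighter probe set (101383_at) read 64.9, 64.7, 61.0, 67.9 and 71.0 in samples 1 to 5 and 44.0 in sample 6. The first 5 lay within 0.14 of each other on the log2 scale, and sample 6 lay 0.54 below the next. The range was 0.68, or 1.61-fold, yet all of these signals are close to the array median, where 133 of 303 genes of like level (43.9%) ranged as widely. Only expressed genes entered that set, which at this level favours wide ranges, and its median range was 0.65. When every value below its array's median was raised to that median, the range was 0.17. The second probe set (161361_s_at) read from 14.6 to 17.2, and 17.0 in sample 6. It was near the floor in all samples and gave no information on the low sample 6.

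Rora was near the array median and nearly level. The brighter probe set (101889_s_at) read 67.9, 55.4, 66.8, 58.6, 55.8 and 66.4 in samples 1 to 6, with 3 of the 6 values under the array median. Its name ending marks shared probes, so its signal is not shown to be specific to Rora. Samples 1, 3 and 6 were slightly above samples 2, 4 and 5, a range of 0.33 or 1.26-fold. Of the 306 expressed genes of like level, 270 (88.2%) ranged as widely. Their median range was 0.65, against 0.40 for all expressed genes. Near the array median, requiring a positive median favours genes with a low outlying value, so this share may be too high. The second probe set (101888_at) read between 2.11 and 5.70, at the floor in every sample.

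**Figure D1:**
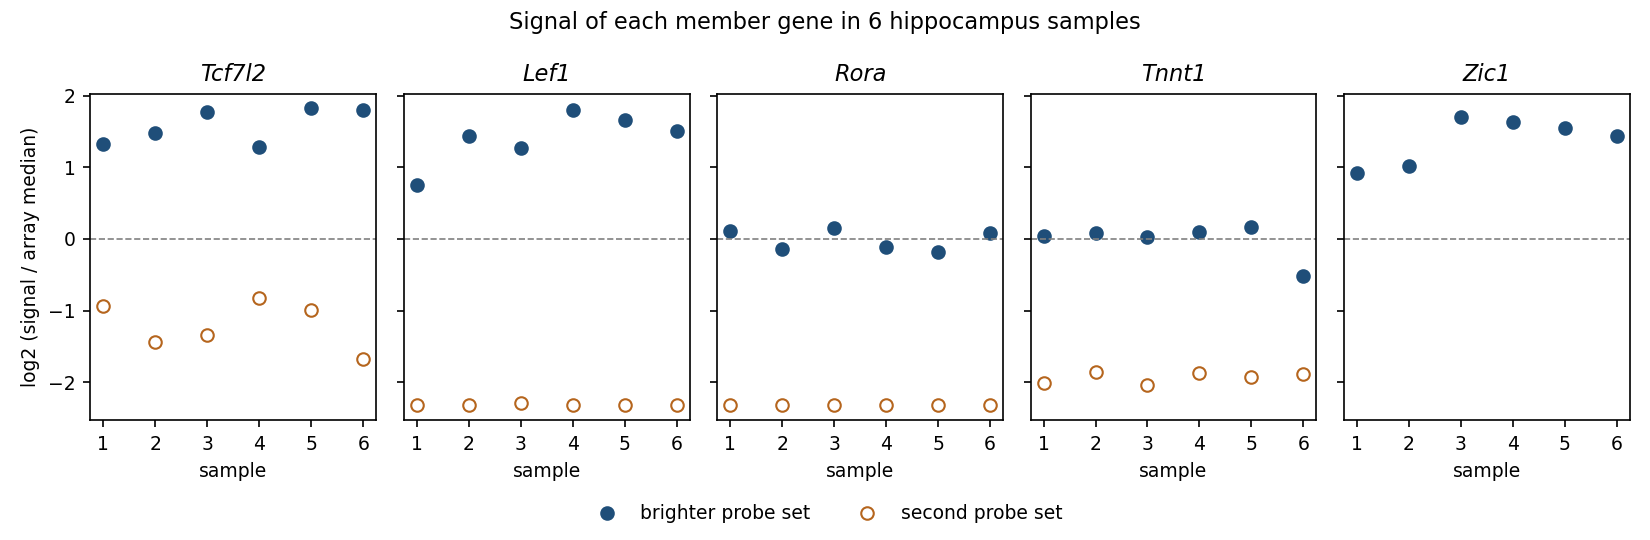
Log2 of signal over the array median (vertical axis) for each of the 5 measured members in samples 1 to 6 (horizontal axis), with 1 array per point, filled points for the brighter probe set, open points for the second and a dashed line at the array median. Lef1 is lowest in sample 1 at 0.75 and Zic1 in samples 1 and 2 at 0.92 and 1.01, while Rora and Tnnt1 lie around the array median and every second probe set lies under it.

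The 4 expressed members had a median range of 0.73, against 0.40 for all 4838 expressed genes. Such a width was not particular to the members. Median ranges of other lists described below were 0.73 for meninges, 0.79 for hippocampal neurons, 1.20 for cerebellum, 1.21 for smooth muscle and 4.64 for choroid plexus. The remaining lists were narrower, from 0.37 (septum and striatum) to 0.64 (other thalamus and habenula genes). Of the 4 expressed members 2 (Lef1 and Zic1) had their lowest value in sample 1, where 21.6% of all expressed genes had theirs. The score of a sample, here the median over the expressed members of the log2 deviation from each gene's own median, was -0.43, -0.09, 0.06, 0.09, 0.15 and -0.01 for samples 1 to 6. Sample 1 was the low one, and the others differed from each other by at most 0.24. Without sample 5 the score of sample 1 was -0.14. With the mean of probe sets, where 2 members (Tcf7l2 and Zic1, not Lef1) were expressed, sample 2 was the lowest at -0.33, with sample 1 at -0.29.

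**Figure D2:**
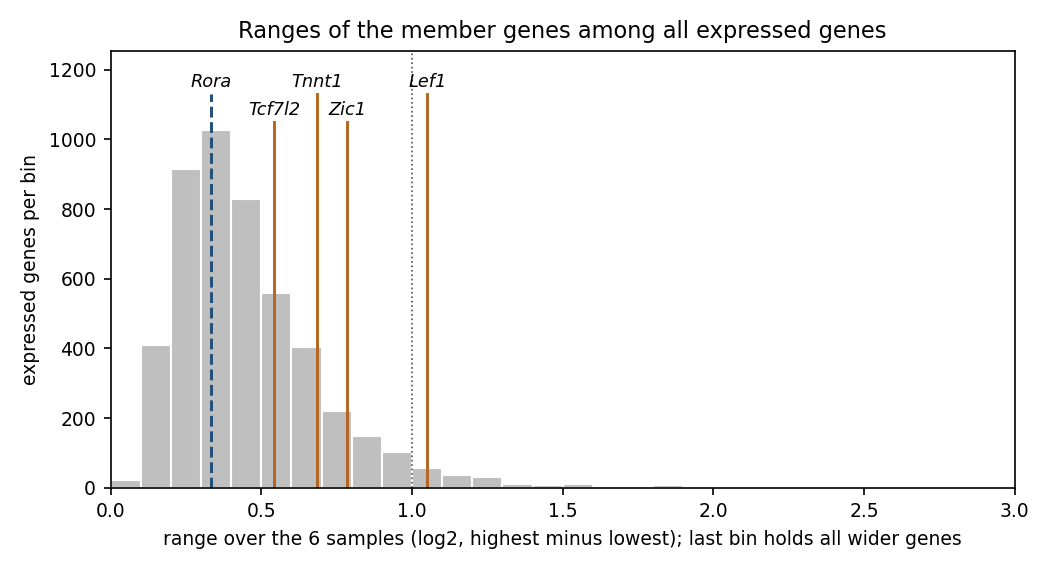
Number of expressed genes (vertical axis) by their range over the 6 samples on the log2 scale (horizontal axis, bins of 0.1), with solid lines at the 4 expressed members, a dashed line at Rora and a dotted line at 1. Tcf7l2 at 0.54, Tnnt1 at 0.68 and Zic1 at 0.78 lie to the right of the median of all expressed genes (0.40), and Lef1 at 1.05 lies beyond the dotted line.

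The members were not shown to vary together. Over the 6 samples 10 pairs were compared, each with an exact two-sided permutation test over the 720 pairings, and the lowest Benjamini-Hochberg adjusted p was 0.76 for r and 0.88 for rho. Lef1 and Zic1 had r = 0.65 (exact permutation p = 0.15, adjusted p = 0.76) and rho = 0.43 (exact permutation p = 0.42, adjusted p = 0.92). Without samples 1 and 4, the farthest from the median of Lef1, r was -0.13, so the relation rests on those samples. Lef1 and Rora had r = -0.67 (exact permutation p = 0.12, adjusted p = 0.76) and rho = -0.66 (exact permutation p = 0.18, adjusted p = 0.88), with r = -0.73 without samples 1 and 4. For the TCF/LEF factors Tcf7l2 and Lef1, r was 0.21 (exact permutation p = 0.74, adjusted p = 0.99) and rho was 0.09 (exact permutation p = 0.92, adjusted p = 0.92), with r = 0.23 without samples 1 and 4. Tcf7l2 and Zic1 had r = 0.47 (exact permutation p = 0.36, adjusted p = 0.99). Leaving out samples 1 and 4 raised it to 0.90, so r moved in either direction with so few samples. The largest rho in size was -0.77, for Rora and Tnnt1 (exact permutation p = 0.10, adjusted p = 0.88).

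Of 24 other genes known from thalamus and habenula, 12 were on the array and 6 were expressed, with a median range of 0.64. Prkcd, protein kinase C delta, a marker of thalamic relay neurons, followed Zic1 in its low pair, with signals of 218 and 227 in samples 1 and 2 and from 260.1 to 327 in the others. Rgs16, a regulator of G protein signalling found in thalamic neurons, was highest in sample 4 at 159, as Lef1 was. Its other samples lay between 114 and 132, with sample 1 lowest after scaling and sample 3 in deposited signals. The other 4 did not share the low sample 1. Adarb1, an RNA-editing deaminase, and Ramp3, a receptor activity-modifying protein, were instead highest in sample 1, at 358 and 81.7. The probe sets of Prkcd and Adarb1 have a name ending that marks shared probes. Calb2, the calcium-binding protein calretinin, was lowest in sample 4 at 200.5, and Zfhx3, a zinc-finger homeobox factor, in sample 3 at 44.7. The score of these 6 genes was 0.12, -0.11, 0.01, 0.05, -0.01 and 0.00 in samples 1 to 6, so the low sample 1 of Lef1 and Zic1 is not seen in it. Ramp3 (38.8 to 81.7) and Zfhx3 (44.7 to 84.3) lay near the array median, which limits what this score shows. Among these 6 genes only Ramp3 had a range above 1 on the log2 scale. It was 2.06-fold, lowest in sample 2, against 2.07-fold for Lef1. Gbx2, Lhx9, Shox2, Cacna1g, Tac1 and Tac2 were measured and not expressed. Tac2, the neurokinin B precursor found in the medial habenula, ran from 23.6 in sample 5 to 87.4 in sample 1.

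Close relatives and partners of the members were then examined. Of 25 genes of the TCF/LEF and beta-catenin pathway 18 were measured and 13 expressed. Those 13 had a median range of 0.44 and no range above 1. Their score in sample 1 was 0.00, and 4 of the 13 were lowest there, against 21.6% of all expressed genes. Ctnnb1, beta-catenin itself, was nearly level (1386 to 1623, a range of 0.17). The co-repressors Tle3 (107 in sample 1 to 184 in sample 6, range 0.78) and Tle1 (93.4 in sample 1 to 138 in sample 6, range 0.56) were among these 4. Tle4 ranged by 0.49 and Tle5, a short form that lacks the repeats of the others, by 0.33. Axin2, a direct transcriptional target of TCF/beta-catenin complexes, read 68.4, 83.8, 74.3, 68.7, 76.0 and 59.4 in samples 1 to 6, lowest in sample 6 and not in sample 1. Ccnd1, the cyclin often listed as such a target, ranged by 0.37. Of the other expressed genes, Dvl2 had the widest range at 0.90 (56.9 in sample 4 to 105 in sample 1). Apc ranged by 0.60, Dvl1 by 0.44, Axin1 by 0.31, Pygo2 by 0.30 and Csnk1a1 by 0.29. Tcf7l1, of the same family as Tcf7l2 and Lef1, was under the filter. It ran from 22.9 in sample 3 to 74.0 in sample 6, a range of 1.62. Dvl3, also under the filter, ranged by 1.44.

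Tnnt1's partners in the thin filament and sarcomere were mostly dim. Of 23 listed genes 21 were measured and 7 expressed, and those 7 had a median range of 0.44 with none above 1. Tnni1, the slow skeletal troponin I that partners Tnnt1 in muscle, read 106, 120.5, 137, 123, 145 and 133 in samples 1 to 6 and was not low in sample 6. The tropomyosins Tpm1, Tpm2 and Tpm3, found in many cell types, ranged by 0.36, 0.54 and 0.28. The actins Acta1 and Actc1 ranged by 0.35 and 0.68, and the slow myosin heavy chain Myh7 by 0.57; the probe sets of Actc1 and Myh7 carry the family ending. The muscle troponins Tnnt2, Tnnt3, Tnni2, Tnni3, Tnnc1 and Tnnc2 were all under the filter. Tnnc2 read 10.7 in sample 2 and from 55.2 to 88.9 in the others. In the Zic family 2 of 4 genes were measured and neither was expressed. Zic2, the neighbour of Zic1 in function, ran from 22.8 in sample 5 to 82.3 in sample 1, where Zic1 was lowest. Of 11 listed relatives of Rora and clock genes sharing its DNA element 8 were measured and 6 expressed, with a median range of 0.45. Nr1d1, the repressor REV-ERB alpha that competes with ROR factors for the same element, ranged by 0.71, from 67.4 in sample 1 to 111 in sample 5. Nr1d2 ranged by 0.65, Per1 by 0.53, Clock by 0.37, Arntl by 0.29 and Cry1 by 0.27. Of 6 vesicular transporters 2 were measured. The expressed one was Slc32a1, the GABA transporter of inhibitory vesicles, at 463 in sample 4 to 667 in sample 1.

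Markers of tissue that can accompany a hippocampal dissection were set beside Lef1 and Zic1. All 7 expressed genes of 9 listed for myelin, the sheath of the fibre tracts next to the hippocampus, had their lowest value in sample 1 or 2, as did 33.2% of all expressed genes. Their summed signal, in which Mbp was the largest part, was 4712 in sample 1, 4920.1 in sample 2 and from 6065 to 6542 in the others. By this sum samples 1 and 2 were the low pair, as for Zic1. The widest ranges in the list were those of Ugt8a (1.43), Cldn11 (0.95) and Mag (0.94). Ugt8a read 45.2, 75.1, 77.4, 122, 123 and 94.2 in samples 1 to 6. Cldn11 read 281 in sample 1 and from 424 to 547 in the others. In both, sample 1 was apart from the rest, as for Lef1, while Mag was low in samples 1 and 2. Of 12 choroid plexus genes 6 were measured and 2 expressed, Ttr and Folr1, with summed signals of 43.2, 83.8, 266, 1627, 609 and 1960.0 in samples 1 to 6. Samples 1 and 2 were again lowest, and samples 4 and 6 highest. For meninges, where Zic1 is also active, all 10 listed genes were measured and 6 expressed, with scores of 0.24, 0.32, -0.17, -0.15, -0.20 and 0.27 in samples 1 to 6. Ptgds, Dcn and Slc6a13 lay above their own medians in samples 1 and 2, where Zic1 was low, while Igf2 and Col1a2 lay below theirs in sample 1 and Col1a1 in sample 2. Of hippocampal neuron markers 11 of 18 were expressed, with a score of -0.13 in sample 1 and between -0.07 and 0.09 in the others, although Prox1, the dentate granule cell factor, was under the filter (26.9 to 69.6). The part of myelin, choroid plexus, neighbouring tissue or RNA quality in the values of Lef1 and Zic1 was not tested. In tissue RNA, fewer cells of a type and less RNA per cell cannot be told apart.

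**Figure D3:**
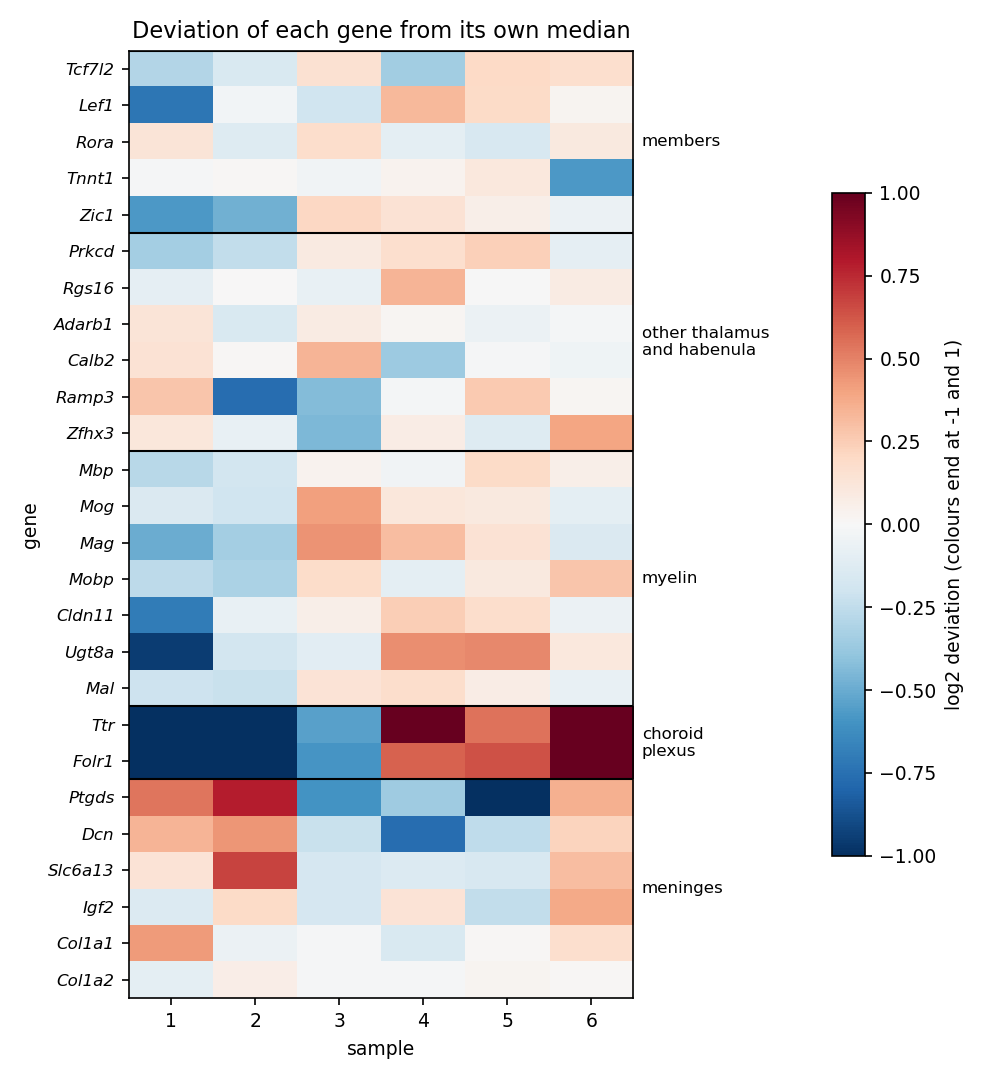
Log2 deviation of each gene (rows) from its own median in samples 1 to 6 (columns), for the measured members and the expressed genes of 4 other lists; red is above and blue below the gene's median, and colours end at -1 and 1. Lef1, Zic1, Prkcd and the myelin genes are blue in sample 1, where Adarb1, Ramp3 and 4 of the 6 meningeal genes are red.

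Markers of other places where the members are active were mostly dim. For septum and striatum 6 of 11 genes were measured and 2 expressed, Penk and Trpc4, with a median range of 0.37. For cerebellum, where Rora and Zic1 are strongly expressed, 7 of 8 were measured and 3 expressed (Pcp2, Cbln1 and Pvalb), with scores between -0.24 in sample 2 and 0.08 in sample 1. Gabra6 and Car8, markers of cerebellar granule and Purkinje cells, read at most 36.7 and 33.0, under every array median. For smooth muscle, which has contractile proteins of its own, all 6 were measured and 3 expressed (Acta2, Tagln and Myl9). After scaling all 3 were lowest in sample 4 and highest in sample 2. Of all expressed genes 20.7% were lowest in sample 4 and 15.6% highest in sample 2. Tagln (47.7) and Myl9 (42.6) were under the array median in sample 4. The low sample of Tnnt1 was instead 6 and its high one 5. In deposited signals the extremes of Acta2 were instead sample 3 (73.2) and sample 1 (120.0).

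The expressed genes with the pattern most like each member over the 6 samples were found by Pearson r, as a description with no test; 6 points from arrays scaled together leave many genes with a high r. For Lef1 they were Unc119b (r = 0.99), Ficd (0.98) and Myo5b (0.98), and 62 of 4834 genes had r of at least 0.9. All 3 were lowest in sample 1, with ranges of 0.53, 0.54 and 0.58, narrower than that of Lef1. Sharing the low sample of a member follows largely from choosing genes by r with it. For Zic1 they were H2bc1 (0.99), Otud7b (0.97) and Foxm1 (0.97), among 52 such genes. Tcf7l2 had Mmp14 (0.98), Ptp4a3 (0.97) and Sqle (0.97), among 30. Tnnt1 had Ptprr (0.98), Dr1 (0.98) and St3gal2 (0.97), among 26, all lowest in sample 6. St3gal2, a sialyltransferase, was the widest of these, with a range of 3.12 and signals from 13.9 to 121. Rora had Cbfb (0.99), H2-Q4 (0.98) and Ppa1 (0.98), among 50, and Cbfb ranged by only 0.10.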

How the data were processed

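Each of 6 hippocampal RNA samples was measured on 1 array of 12488 probe sets, of which 66 are controls. The authors deposited signal intensity per probe set; of the scanner, summary method and scaling, nothing is stated in the labels. The mean between the 2nd and 98th percentile was 150.0 on every array. Names come from the platform annotation, using probe sets with 1 symbol. The 9 member probe sets matched RefSeq gene identifiers (GRCm38.p6), and 0 symbols changed. Name endings that mark shared probes were also carried by the probe sets of Ptgds, Cry1, Penk, Tnnc2, H2bc1, Otud7b and H2-Q4, among others. Signals of such probe sets are not shown to be specific to the named gene. No sample has a group in the labels, so no genotype was inferred and no group test was made. Scaling, floor, expression filter and range are described in the results. Correlations used exact permutation tests with Benjamini-Hochberg adjustment. Alternatives were no further scaling, quantile normalization, no floor, raising low values to the array median, the mean of probe sets, no expression filter, and leaving out each sample. The scripts (Python 3.11.15, pandas 2.3.3, numpy 2.4.6) were tested on simulated data. The members and lists were chosen with earlier results of these data known. Most named genes follow a fixed rule: all members, all expressed genes of the related lists, and up to 3 by range of the marker lists. The 3 genes most like each member are also named. For meninges all 6 expressed genes were named, which goes beyond that rule. Gabra6, Car8, Prox1, Tac2, Tnnc2, Zic2 and other genes under the filter were named after their values were seen. The number of arrays limits the precision.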

Additional observations from a re-analysis of the deposited data

How the results depend on the processing

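The count of members with a range over 1 was 1 under every scaling and floor tried, 0 with the mean of probe sets (2 members then expressed), and between 0 and 1 when each sample was left out, being 0 without sample 1 or sample 4. The median range of the expressed members moved between 0.59 and 0.73 over the alternatives. The score of sample 1 ran from -0.45 to -0.14 and was smallest in size without sample 5. Rora then passed the filter and entered the score. It also did so without sample 2 or without sample 4, where the score was -0.45. With the mean of probe sets the score rested on Tcf7l2 and Zic1 alone, since Lef1 and Tnnt1 were then under the filter. The score of sample 2 was -0.33 and that of sample 1 was -0.29, so that sample 2 became the lowest. Lef1 and Zic1 were lowest in sample 1 under every setting that keeps it. Correlations of members that changed sign had no adjusted p under 0.05 in any setting with a test: with the mean of probe sets Tcf7l2 had r = -0.24 with Rora and 0.44 with Tnnt1, with low values raised to the array median Zic1 had r = 0.032 with Rora and 0.15 with Tnnt1, and without the 2 samples farthest from the median of the first gene Lef1 and Zic1 had r = -0.13 and Tnnt1 and Zic1 r = 0.0085. Tnnt1 ranged by 0.68, but 0.14 without sample 6. No paired analysis was possible because the labels put the samples in no groups. Signals near the array median, as for Rora and Tnnt1, limit what their differences show.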

Other observations

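Single genes of the smooth muscle, cerebellar and hippocampal lists differed between samples in other orders than Lef1 and Zic1. Myl9, a smooth muscle myosin light chain, read 85.6, 95.8, 73.8, 42.6, 81.0 and 75.6 in samples 1 to 6, low in sample 4 alone, and Acta2, smooth muscle actin, read 120.0 and 118 in samples 1 and 2 against 73.2 to 80.9 in the others. Pcp2, a Purkinje cell protein, read 72.3 and 73.3 in samples 3 and 5 and from 198.5 to 238 in the others. Cbln1, a synapse organiser of cerebellar granule cells that is also present in thalamus, ran from 78.6 in sample 4 to 180.0 in sample 5. Bok, a BCL2 family gene on the hippocampal list, ran from 120.0 in sample 2 to 447 in sample 1. Camk2a, the kinase subunit of excitatory synapses and the other gene of that list with a range over 1, read 412, 845, 275, 865, 1016 and 579 in samples 1 to 6.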
